A study of Mus musculus with 12 samples.

Results

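CD8+ T cells that had entered oral tumors of mice given BF10 or IL-10-Fc were compared by their T cell receptor (TCR) chains. The comparison used 2 of the 12 TCR libraries of the series, chosen by their labels as the tumor libraries of the treatments that carry an IL-10 moiety. The hosts were wild-type C57BL/6 mice with orthotopic buccal tumors of MTCQ1-2, a syngeneic oral cancer line. BF10 is a mouse antibody against the mouse CSF-1 receptor (mCSF-1R) whose heavy chains each end in a monomer of human IL-10, and IL-10-Fc is IL-10 on an immunoglobulin Fc without the antibody arms. Both were given 3 times at intervals of 3 days, at doses that the labels call equivalent (30 mg/kg) and that the study's methods scale by molecular weight. The study's methods give the age of its C57BL/6J mice as 6 to 8 weeks when bought. CD8+ cells were taken on magnetic beads, and each library was made from 100 ng RNA of 3 mice mixed together. Each treatment therefore had 1 library and no replicate, no test between treatments was possible, and differences between the mice of a pool cannot be told apart from differences between treatments. The other libraries, which serve here only as reference levels, came from tumors of mice given control IgG or anti-CSF1R and from the spleens and tumor-draining lymph nodes (tdLNs) of all treatments.

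An αβ TCR joins an α chain (TRAC) and a β chain (TRBC). Each chain is assembled in the thymus from a V and a J gene segment, with a D segment between them in the β chain, and bases are trimmed and added at the joints without a template. The joint encodes the third complementarity-determining region (CDR3), the loop that lies over the presented peptide. T cells that descend from 1 parent share 1 nucleotide joint, whereas the same amino acid loop written by different joints comes from separate rearrangements. CDR3s that need few untemplated bases are made often and are found in many animals, and are called public.

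Reads were grouped by unique molecular identifier (UMI), a tag put on each cDNA molecule before amplification, and a clonotype was a V region, J region and nucleotide CDR3 as listed in the deposited table. UMIs count cDNA molecules and not cells, and several can come from 1 cell. The BF10 library held 175080 TRBC UMIs on 90267 clonotypes and 117661 TRAC UMIs on 55103 clonotypes. The IL-10-Fc library held 130104 TRBC UMIs on 54779 clonotypes and 98821 TRAC UMIs on 38233 clonotypes. The 12 libraries held between 61965 and 340888 UMIs over all chains. UMIs with at least 7 reads, a measure of how fully a library was read, were 41.4% of TRBC UMIs for BF10 and 50.9% for IL-10-Fc. In the spleens this share lay between 39.3% and 57.5%, and in the tdLN library of BF10, which stood apart with that of anti-CSF1R, it was 8.26%. All intervals are 95% intervals (Clopper-Pearson for shares, exact conditional for ratios) and cover counting error only, not differences between mice or preparations.

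Nearly all chains were those of αβ T cells. The γδ chains took 0.898% of all UMIs for BF10 (0.864% to 0.933%) and 0.873% for IL-10-Fc (0.835% to 0.912%), against 4.27% in the tumor of control IgG. The α chain of invariant natural killer T cells, Trav11 with Traj18, had 21 TRAC UMIs (0.0178%) for BF10 and 30 (0.0304%) for IL-10-Fc. That of mucosal-associated invariant T cells, Trav1 with Traj33, had 14 and 7 UMIs. TCR libraries hold no Cd8a or Cd4 transcript, so the bead selection itself was not checked.

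The sequences below are the joints that lead each library or recur in both. They are written 5′ to 3′ from the conserved cysteine codon to the phenylalanine codon, as listed in the deposited table. Capitals mark bases that matched neither the germline V nor the germline J segment (GRCm38), and so include the D segment. The first is the leading clonotype of the BF10 library (Trbv3 with Trbj2-7), and the next 3 are leading joints of the IL-10-Fc library that were not listed for BF10, with Trbv14 and Trbj2-1, Trbv26 and Trbj1-4, and Trbv19 and Trbj1-2.
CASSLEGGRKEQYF: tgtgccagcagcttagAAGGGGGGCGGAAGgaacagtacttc
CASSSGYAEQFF: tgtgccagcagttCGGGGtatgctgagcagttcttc
Trbv26 Trbj1-4, 15 residues: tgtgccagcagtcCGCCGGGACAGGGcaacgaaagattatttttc
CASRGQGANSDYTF: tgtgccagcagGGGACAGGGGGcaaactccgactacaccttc

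The next set holds 5 joints that encode the same loop, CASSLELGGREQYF, with Trbv16 (chromosome 6, 41151740 to 41152230) and Trbj2-7 (chromosome 6, 41543810 to 41543856). They show how 1 amino acid sequence recurred in both tumors through different rearrangements. In each, 17 bases came from the V segment, 12 from the J segment and 13 from neither, and a run of 9 to 11 of these 13 matched Trbd2.
Joint 1: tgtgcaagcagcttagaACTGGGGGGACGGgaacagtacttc
Joint 2: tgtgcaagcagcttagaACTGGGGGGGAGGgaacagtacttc
Joint 3: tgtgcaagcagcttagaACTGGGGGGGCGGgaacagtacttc
Joint 4: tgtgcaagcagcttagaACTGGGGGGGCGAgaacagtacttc
Joint 5: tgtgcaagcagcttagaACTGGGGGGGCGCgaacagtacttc

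The last set holds the leading joint of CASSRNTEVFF in both tumors, with Trbv17 (chromosome 6, 41163062 to 41163556) and Trbj1-1 (chromosome 6, 41533864 to 41533911), and the leading joint of a TRAC loop of 15 residues with Trav5d-4 and Traj53, in which germline bases were not marked. The joint of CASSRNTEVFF has 0 unmatched bases and is wholly germline.
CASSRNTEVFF: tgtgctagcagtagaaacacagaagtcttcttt
Trav5d-4 Traj53, 15 residues: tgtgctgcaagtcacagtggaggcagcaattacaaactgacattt

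The V genes of the β chain, which encode the loops that contact the presenting molecule, were used in nearly the same proportions by both tumors. Trbv29, Trbv16, Trbv19 and Trbv3 led in both libraries. The table listed 28 Trbv genes and 11 entries that join several of them, and 22 genes and 0 joint entries held at least 0.1% of the TRBC UMIs of both libraries together, and 0 of the 22 (0% of those compared) differed by more than 1.5-fold in either direction. The ratio of the BF10 share to the IL-10-Fc share ran from 0.782 for Trbv30 to 1.17 for Trbv12-1, and 15 of 22 genes lay within 1.1-fold. The median absolute log2 ratio was 0.07, beside 0.23 for the same treatments in spleens and 0.09 in tdLNs.

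Trbv29 took 14.5% of TRBC UMIs for BF10 and 13.2% for IL-10-Fc, a ratio of 1.099 (1.08 to 1.12). Trbv16 took 11.2% and 12.3% (ratio 0.909), and Trbv19 took 10.2% and 10.7%. Trbv3 was level, at 7.75% and 7.74%. Of the smaller genes, Trbv12-1 was higher for BF10, at 5.48% against 4.66% (ratio 1.17, 1.14 to 1.21), and Trbv26 was lower, at 2.66% against 3.23% (ratio 0.824). The Trbv12 group together, known by antibodies as Vβ5, took 10.9% and 9.84%, and the Trbv13 group, known as Vβ8, took 14.5% and 14.2%. Trbv23 and Trbv30 were lower for BF10, at 0.594% against 0.747% and at 0.243% against 0.311%. Counting intervals lay wholly above 1 for 7 genes and wholly below 1 for 8 genes and held 1 for 7 genes.

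Both libraries were close in usage beside the control IgG tumor, though not always beside spleens. The distance between V usage profiles, which is the share of UMIs that would have to change gene for them to match, was 3.50 percentage points between the tumors of BF10 and IL-10-Fc. It was 27.3 points between BF10 and control IgG tumors and 26.6 points between IL-10-Fc and control IgG tumors. Trbv5, for example, took 2.44% for BF10 and 2.53% for IL-10-Fc but 14.01% in the control IgG tumor. The tumor of IL-10-Fc lay 3.09 points from the spleen of the same mice and that of BF10 lay 8.51 points from its own, while the spleens of both treatments lay 8.22 points apart. With each clonotype counted once, so that abundant clonotypes weigh no more than rare ones, the tumor distance was 1.87 points, and 7.87 points between BF10 and control IgG.

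J usage of the β chain was closer still. Of 13 Trbj entries listed, which include a joint entry without UMIs in either tumor, 12 could be compared, and 0 of them (0%) passed 1.5-fold. Trbj2-7 led with 21.4% for BF10 and 22.4% for IL-10-Fc, followed by Trbj2-1 with 14.01% and 14.69% and Trbj2-5 with 10.8% and 10.4%. Then came Trbj2-4 at 9.47% and 9.11%, Trbj2-3 at 9.13% and 8.93%, Trbj1-1 at 8.74% and 8.66%, Trbj1-2 at 5.99% and 5.62%, Trbj1-4 at 5.90% and 6.26%, Trbj2-2 at 5.21% and 5.03%, Trbj1-3 at 4.25% and 4.15% and Trbj1-6 at 2.43% and 2.57%. The widest ratio was that of Trbj1-5, at 2.67% against 2.22% (1.20, 1.15 to 1.26). The genes of the first J cluster together took 30.0% for BF10 and 29.5% for IL-10-Fc, against 42.6% in the control IgG tumor, where Trbj1-2 alone took 14.5%. The distance between the J profiles of both tumors was 2.13 points.

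**Figure D1:**
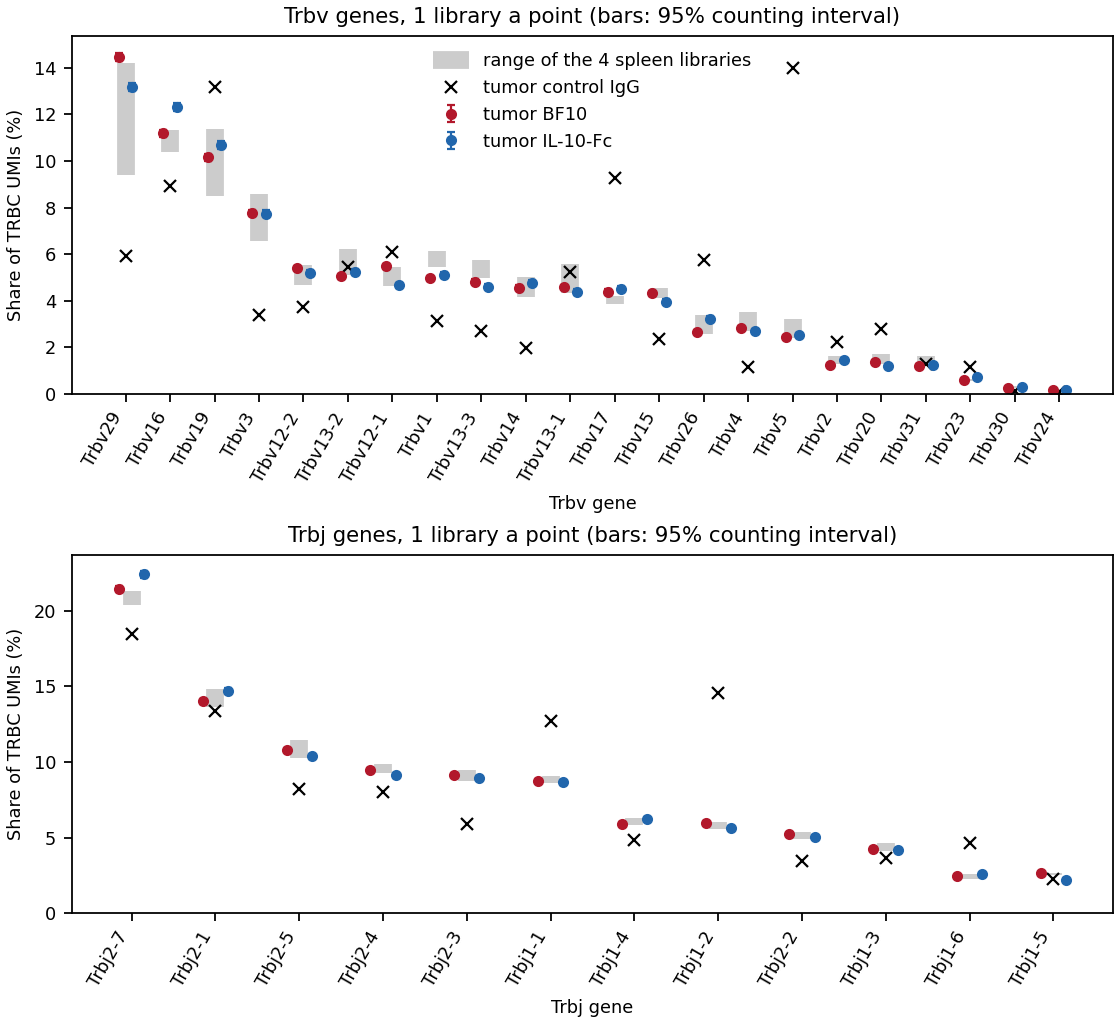
Share of TRBC UMIs (%) on each Trbv gene (upper panel) and Trbj gene (lower panel), with 1 library a point and bars for the 95% counting interval. Grey bands span the 4 spleen libraries and crosses mark the control IgG tumor. The BF10 (red) and IL-10-Fc (blue) points lie within 1.5-fold of each other for each gene shown, with Trbv29 at 14.5% and 13.2%, while the control IgG tumor departs from both at Trbv5 (14.01%) and Trbj1-2 (14.5%).

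α chain usage was alike at the level of V families, the groups of similar V genes, many of which gained near-identical copies when this locus was duplicated in the mouse. Of 22 Trav entries, which include a joint entry for several families, 19 could be compared and 0 of them (0%) passed 1.5-fold. Trav14 took 14.9% of TRAC UMIs for BF10 and 14.4% for IL-10-Fc, and Trav12 took 13.2% and 12.4%, Trav6 10.2% and 9.74%, and Trav13 7.88% and 7.93%. Trav7 was lower for BF10, at 13.3% against 16.6% (ratio 0.798). Without the leading clonotype of IL-10-Fc, a Trav7d-2 with Traj22 chain of 1971 UMIs there and 17 in BF10, Trav7 took 13.3% and 14.9% (ratio 0.887, 0.867 to 0.908). Of 101 V regions as listed, including listings that join several genes, 6 (5.94%) passed 1.5-fold. Of these, 5 were lower for BF10, among them Trav7d-2 at 4.03% against 6.41% and Trav7n-4 at 0.177% against 0.631%, and Trav6-4 was higher, at 0.212% against 0.124%. These copies share reads: 27.2% of TRAC UMIs for BF10 and 25.8% for IL-10-Fc were listed with several V genes.

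Among Traj genes, 1 of 41 (2.44%) passed 1.5-fold. This was Traj7, at 0.142% for BF10 and 0.220% for IL-10-Fc (ratio 0.646, 0.525 to 0.795). A single Trav12n-2 clonotype gave 93 of its UMIs in IL-10-Fc and 0 in BF10, and without it the ratio was 1.13 (0.890 to 1.44). Traj22 was the most used J gene in both tumors, at 8.18% and 10.1%. Its ratio of 0.806 became 0.982 (0.953 to 1.01) without the Trav7d-2 clonotype named above. Traj30 took 6.87% and 6.23%, Traj31 5.11% and 5.30%, Traj26 5.09% and 4.94%, and Traj23 4.62% and 4.71%. Traj58 had the highest ratio for BF10, at 0.832% against 0.610% (1.36, 1.23 to 1.51).

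The Trav distance between both tumors was 3.70 points and the Traj distance 4.25 points, against 16.7 and 20.9 between BF10 and control IgG tumors. The spleens of both treatments lay 4.09 points apart for Trav and 2.72 for Traj, and their tdLNs 4.87 and 2.76. Each tumor lay nearer to its own spleen than to the other tumor, at 3.597 points for BF10 and 3.016 for IL-10-Fc by Trav and at 3.19 and 3.77 by Traj. The counting interval of the Trav distance between both tumors, 3.32 to 4.07 points, held the 3.597 of BF10. With each clonotype counted once, BF10 lay nearer to the other tumor. Its distances were then 1.71 points against 2.37 to its spleen by Trav, and 1.84 against 2.44 by Traj. IL-10-Fc stayed nearer to its spleen, at 1.25 and 1.77 points.

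Pairs of Trbv and Trbj showed where single clonotypes weighed on usage. Of 361 pairs listed, 194 could be compared and 12 (6.19%) passed 1.5-fold, with 8 lower and 4 higher for BF10. The pair with the widest difference was Trbv26 with Trbj1-4, at 0.138% for BF10 and 0.665% for IL-10-Fc, which is 4.81-fold lower (4.17 to 5.57). The Trbv26 joint of 15 residues printed above gave 453 of the 865 UMIs of this pair in IL-10-Fc and was listed with 0 UMIs in BF10. Trbv13-1 with Trbj1-6 had a ratio of 0.404, with 325 of 504 UMIs of IL-10-Fc on 1 clonotype, and Trbv15 with Trbj1-5 had a ratio of 1.95, which became 1.26 without its leading BF10 clonotype. With the leading clonotype of the higher library left out of each pair, 1 of the 8 lower pairs and 3 of the 4 higher pairs stayed past 1.5-fold.

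CDR3 length was the same to within a small part of a residue. The mean β chain CDR3 had 13.87 residues for BF10 (SD 1.80 over UMIs) and 13.86 for IL-10-Fc (SD 1.64), a difference of 0.00306 residues (-0.00921 to 0.0153). The mean α chain CDR3 had 13.56 residues (SD 1.406) and 13.54 (SD 1.398), a difference of 0.0187 (0.00685 to 0.0306). Loops of 14 residues were the most frequent in both chains, at 31.4% of TRBC UMIs for BF10 and 31.8% for IL-10-Fc and at 31.7% and 30.8% of TRAC UMIs. In the control IgG tumor the mean β chain length was 13.58. Hydrophobic residues at both positions 6 and 7 of the β chain loop, a feature described for self-reactive receptors, were found on 1.047% of TRBC UMIs for BF10 (0.9998% to 1.096%) and 1.025% for IL-10-Fc (0.9706% to 1.081%).

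Most β chain loops were private to 1 tumor. At the amino acid level 10663 TRBC CDR3s were found in both libraries, which is 15.1% of the 70544 of BF10 and 23.6% of the 45136 of IL-10-Fc. The shared CDR3s held 28.4% of BF10's TRBC UMIs (28.2% to 28.6%) and 35.8% of IL-10-Fc's (35.6% to 36.1%). Private CDR3s numbered 59881 for BF10 and 34473 for IL-10-Fc. Sharing was more common among α chains, which have no D segment: 9905 TRAC CDR3s were found in both, 28.8% of BF10's and 39.1% of IL-10-Fc's, and they held 54.9% and 61.2% of the UMIs.

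The number shared depends on depth, so it was also computed as the number expected with each TRBC library cut to 104036 UMIs. On that footing both tumors shared 8523 TRBC CDR3s (15.7% of BF10's and 20.6% of IL-10-Fc's). The spleens of the same treatments shared 11268 (19.9% and 18.9%), the tdLNs shared 12245 (17.96% and 20.62%), and the tumors of BF10 and control IgG shared 2230. For TRAC, at 55901 UMIs, both tumors shared 7067 CDR3s (29.0% and 34.6%) and the spleens shared 8334.

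Most of the shared β chain loops were not written by the same joint. Of the 10663, 2329 (21.8%) had at least 1 nucleotide CDR3 in both libraries, and 8334 (78.2%) were encoded by different nucleotide sequences only. Counted as clonotypes, with V, J and nucleotides the same, 2194 were in both tumors, or 2.43% of BF10's clonotypes and 4.01% of IL-10-Fc's, and 57 of them had at least 5 UMIs on each side. Among loops with at least 20 UMIs in both libraries, 89 of 94 TRBC and 280 of 281 TRAC loops had a nucleotide sequence in common. For TRAC as a whole this was so of 5531 (55.8%).

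Shared β chain loops were encoded by more joints, were shorter and had fewer bases outside the V and J segments than private loops. In BF10, a shared loop was encoded by 2.17 nucleotide sequences on average and a private loop by 1.102, and 45.8% of shared against 7.89% of private loops had several. In IL-10-Fc the means were 1.686 and 1.053 and the shares 34.3% and 4.62%. Shared loops had 13.5 residues (SD 1.31), against 14.1 (SD 2.07) for the private loops of BF10 and 14.2 (SD 1.95) for those of IL-10-Fc. The bases matched to neither V nor J numbered 8.58 (SD 3.66) per shared and 10.7 (SD 3.95) per private clonotype in BF10 and 8.61 and 10.9 in IL-10-Fc. Shared loops also had more UMIs (4.67 against 2.09 on average in BF10), and more UMIs can show more joints. Among loops with exactly 3 UMIs in BF10, shared loops still had 1.54 nucleotide sequences on average and private loops 1.14.

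The share of loops found in both tumors varied along each scale. In BF10, 59.4% of clonotypes with at most 2 unmatched bases had a loop found in IL-10-Fc, falling through 34.5% at 6 to 8 bases to 11.9% at 15 or more. In IL-10-Fc these shares were 74.1%, 42.6% and 14.97%. By length, 19.3% of BF10's loops of 8 to 10 residues, 23.4% of those of 11, 17.9% of those of 14 and 1.51% of those of 17 were shared. By abundance, 9.22% of loops with 1 UMI in BF10 and 89.9% of those with 20 to 49 UMIs were shared. The share was lower again above that, at 18 of 31 loops (58.1%) with at least 50 UMIs in BF10 and 18 of 44 (40.9%) in IL-10-Fc, among which were the leading clonotypes described further on.

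Sharing also varied with the gene segment that carried the loop. A loop counted as shared whichever V gene carried it in the other library, so the V gene values are not shares within a gene. With V and J required, 6646 TRBC loops were shared in place of 10663. Among BF10's loops, 34.2% of those with Trbv12-2, 32.9% with Trbv26 and 32.6% with Trbv12-1 were found in IL-10-Fc, against 1.22% with Trbv23, 1.52% with Trbv30 and 3.08% with Trbv31. By J gene, the share ran from 9.30% for Trbj1-6 to 18.3% for Trbj2-7. In the α chain it was 37.9% for Traj22 and 15.9% for Traj2.

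Loops shared by both tumors were also frequent outside them. In BF10, 59.97% of shared and 13.1% of private TRBC loops were found in the spleen of the same mice, and 64.8% and 14.7% in the spleen of the IL-10-Fc mice. In IL-10-Fc, 64.8% of shared and 13.5% of private loops were found in the spleen of the same mice. At exactly 3 UMIs in BF10 the shares in its own spleen were 54.6% and 14.04%. The control IgG tumor, with 8578 TRBC loops in all, held 14.2% of the loops that BF10 and IL-10-Fc shared and 1.70% of BF10's private loops.

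**Figure D2:**
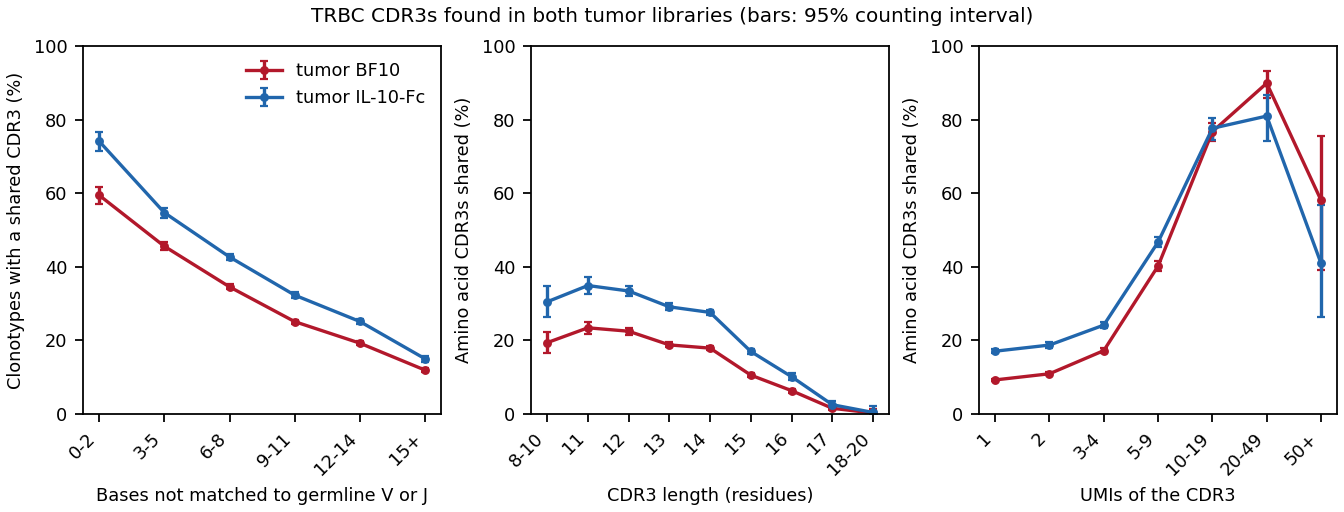
Share (%) of TRBC CDR3s of the BF10 (red) and IL-10-Fc (blue) tumor libraries that were found in the other library at the amino acid level, by bases not matched to germline V or J (per clonotype), by CDR3 length and by UMIs of the loop, with 95% counting intervals. The share falls from 59.4% to 11.9% for BF10 and from 74.1% to 14.97% for IL-10-Fc as unmatched bases increase, and with UMIs it rises to 89.9% at 20 to 49 UMIs in BF10 and is 58.1% at 50 or more.

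The abundant public loops named here were ranked by the smaller of their UMI shares in both tumors. That ranking by itself favors loops at like levels in both. Most of them were also near the level of the spleens, which the ranking did not use. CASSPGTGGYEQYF, carried by 15 pairs of V and J genes, had 191 UMIs in BF10 and 97 in IL-10-Fc, through 36 and 28 nucleotide sequences of which 17 were in both. Its share was 0.109% and 0.0746% (ratio 1.46, 1.14 to 1.89), and the tumor pair together had 1.31 times the level of the 4 spleens. Another loop of 14 residues, led by Trbv16, had 113 and 68 UMIs and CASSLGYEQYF had 81 and 46, with intervals of the ratio that held 1. In the α chain, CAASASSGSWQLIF with Traj22 had 750 UMIs in BF10 (0.637%) and 709 in IL-10-Fc (0.717%), and 0.960 times the spleen level. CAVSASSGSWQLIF had 262 and 172 UMIs, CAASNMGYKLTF had 246 and 162, and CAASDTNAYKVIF had 218 and 136, each between 0.911 and 1.29 times the spleen level. Exceptions were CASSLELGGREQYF and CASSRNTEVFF, which led this ranking for TRBC and are described below, and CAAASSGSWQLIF. The last, carried by 30 pairs of V and J genes, had 237 UMIs in BF10 (0.201%) and 2116 in IL-10-Fc (2.14%). It was 10.6-fold lower in BF10 (9.29 to 12.2), was encoded by 11 and 16 nucleotide sequences, of which 8 were in both, and reached 8.11 times the spleen level over both tumors together.

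A few loops were abundant in both tumors and nearly absent from spleens. They were picked after their values were seen, as those with at least 0.02% of the chain's UMIs in both tumors and at least 10 times the level of the 4 spleens together. This left 2 of 22 TRBC loops at that level and 1 of 242 TRAC loops. Among the other loops at that level the ratio of tumors to spleens reached 1.84 for TRBC, with a median of 1.21, and 8.11 for TRAC, with a median of 1.06.

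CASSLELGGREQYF, the loop with the most TRBC UMIs over both tumors, had 358 UMIs in BF10 (0.204%, 0.184% to 0.227%) and 1447 in IL-10-Fc (1.11%, 1.06% to 1.17%). It was 5.44-fold lower in BF10 (4.84 to 6.12). The control IgG tumor had 2 UMIs and the anti-CSF1R tumor 339 (1.03%). The spleens had 2, 14, 1 and 0 UMIs for control IgG, IL-10-Fc, anti-CSF1R and BF10, and the tdLNs had 3, 238, 14 and 111 in the same order. The tumors and tdLNs of both IL-10 treatments, and the tumor of anti-CSF1R, were thus the libraries with over 100 UMIs. Joints 1 to 5 had 0 UMIs in the anti-CSF1R tumor, whose 339 UMIs lay on other joints.

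The joints behind this loop differed between both tumors. BF10 carried it on 8 clonotypes and IL-10-Fc on 14, of which 3 were in both, and with at least 10 UMIs there were 2 and 4, of which 1 was in both. Joint 4 gave 290 of BF10's UMIs and 0 of IL-10-Fc's. Joint 1 gave 468 UMIs in IL-10-Fc and 0 in BF10. Joints 3 and 5 gave 352 and 285 UMIs in IL-10-Fc but 2 and 5 in BF10. Joint 2 was the 1 joint well represented in both, with 55 UMIs in BF10 and 326 in IL-10-Fc. As the sequences above show, the joints are alike up to the last bases before the J segment. The leading joint made up 81.0% of the loop's UMIs in BF10 and 32.3% in IL-10-Fc. Joint 4 had 73 UMIs in the tdLN of BF10 and 0 in that of IL-10-Fc, and joint 1 had 64 in the tdLN of IL-10-Fc and 0 in that of BF10. Loops of the same length that differ from it at 1 residue, with any V and J, were few in either tumor, with 102 UMIs on 19 loops in BF10 and 72 on 18 in IL-10-Fc. In the other tumors 1 such relative led, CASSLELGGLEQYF with 114 UMIs under control IgG and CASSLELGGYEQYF with 135 under anti-CSF1R.

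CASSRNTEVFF, by contrast, was led by the same joint in both tumors. It had 254 UMIs in BF10 (0.145%, 0.128% to 0.164%) and 466 in IL-10-Fc (0.358%, 0.326% to 0.392%), which is 2.47-fold lower in BF10 (2.11 to 2.89). The control IgG tumor had far more, with 5732 UMIs (5.51%), and the anti-CSF1R tumor had 660 (2.01%). The spleens had 3 to 14 UMIs, and the tdLNs had 70, 126, 46 and 44 for control IgG, IL-10-Fc, anti-CSF1R and BF10. It was therefore found in all 4 tumors, with its highest share under control IgG. The germline joint printed above had 199 UMIs in BF10, 384 in IL-10-Fc and 924 in the control IgG tumor.

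The TRAC loop was the one of 15 residues with Trav5d-4 and Traj53. It had 127 UMIs in BF10 (0.108%) and 67 in IL-10-Fc (0.0678%), a ratio of 1.59 (1.18 to 2.17), with 162 in the control IgG tumor and 0 in that of anti-CSF1R. Its leading joint had 123 UMIs in BF10, 62 in IL-10-Fc and 70 in the control IgG tumor, and 0 in the 4 spleens and the 4 tdLNs. A second clonotype of the same genes and length, with a joint that differs at 1 base and a loop that differs at 1 residue, had 19 UMIs in BF10, 151 in IL-10-Fc and 2296 in the control IgG tumor. In the control IgG tumor the 70 UMIs of the leading joint would be merged with the second under the rule of 1 base and 10-fold fewer UMIs. Whether those 70 are read errors of the second was not tested. The Trav5d-4 loop of 162 UMIs there and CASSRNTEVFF had their highest shares in the control IgG tumor, and whether molecules passed between libraries during preparation was not tested.

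**Figure D3:**
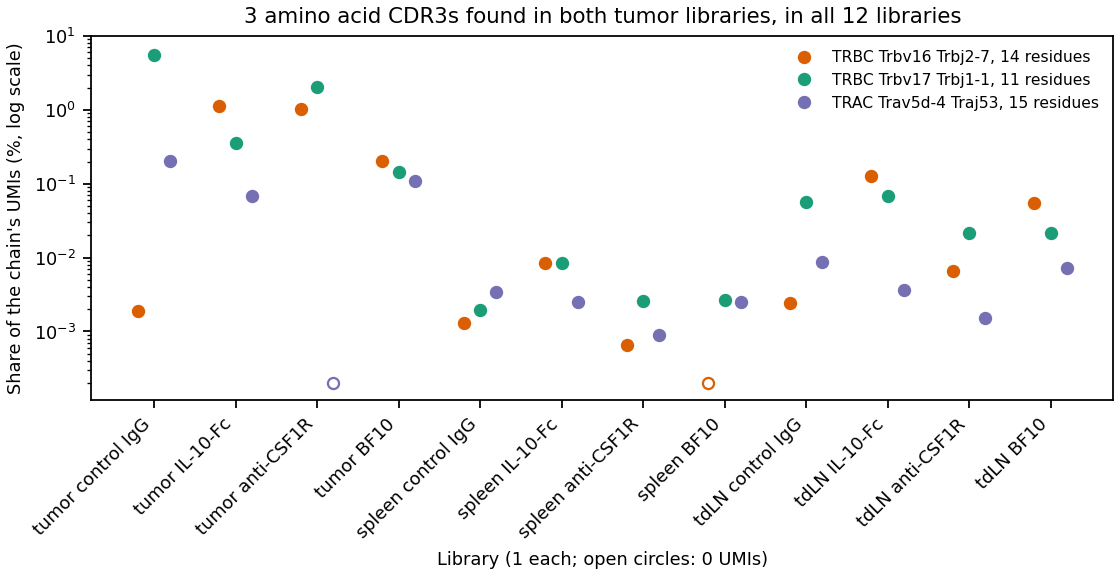
Share of the chain's UMIs (%, log axis) of the 3 loops found in both tumors and nearly absent from spleens, in each of the 12 libraries (1 point a library and loop, open circles for 0 UMIs). The Trbv16 with Trbj2-7 loop (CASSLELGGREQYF) lies at 1.11% in the IL-10-Fc tumor and 0.204% in the BF10 tumor, and the Trbv17 with Trbj1-1 loop (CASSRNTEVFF) at 0.358% and 0.145%, with 5.51% in the control IgG tumor.

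The leading clonotypes of BF10 were small. Clonotypes with at least 0.1% of the chain's UMIs, here called expanded, numbered 3 in the TRBC of BF10 and 23 in that of IL-10-Fc. They held 0.448% of TRBC UMIs for BF10 (0.418% to 0.481%) and 5.11% for IL-10-Fc (4.99% to 5.23%), beside 50.2% on 76 clonotypes in the control IgG tumor. For TRAC there were 3 and 15, with 0.377% and 4.38% of the UMIs. The 10 leading TRBC clonotypes together held 0.890% in BF10 against 3.02% in IL-10-Fc. The upper 50% of TRBC UMIs lay on 24760 clonotypes in BF10, 13407 in IL-10-Fc and 75 in the control IgG tumor. With BF10 cut to the 130104 TRBC UMIs of IL-10-Fc, 77109 clonotypes were expected against 54779.

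**Figure D4:**
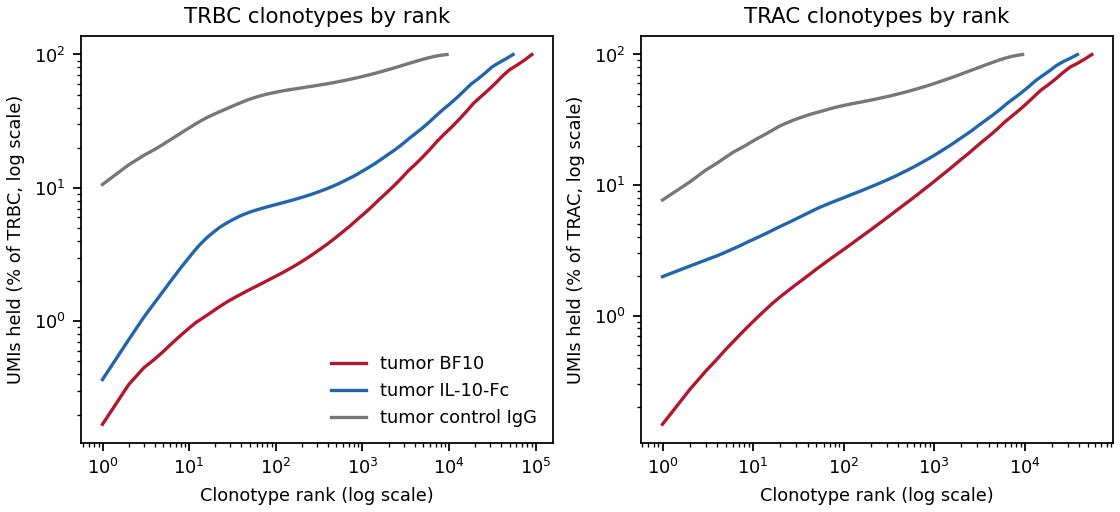
Share of the chain's UMIs (%) held by the leading clonotypes, summed up to each rank (both axes log), for TRBC (left) and TRAC (right) of the BF10, IL-10-Fc and control IgG tumor libraries. The 10 leading TRBC clonotypes hold 0.890% in BF10, 3.02% in IL-10-Fc and 28.2% in control IgG, and the 100 leading clonotypes hold 2.18%, 7.50% and 52.1%.

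In BF10, the leading TRBC clonotype was the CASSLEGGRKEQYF joint printed first, with 296 UMIs (0.169%). It had 0 UMIs in the IL-10-Fc tumor, which puts it at least 73.3-fold higher in BF10 against a floor of 3 UMIs. The next was joint 4 of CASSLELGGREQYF (290 UMIs), followed by the germline joint of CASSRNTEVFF (199), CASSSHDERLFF with Trbv29 and Trbj1-4 (127) and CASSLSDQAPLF with Trbv15 and Trbj1-5 (124). The latter pair had 0 UMIs in IL-10-Fc, where 2.43% of all TRBC clonotypes of BF10 were listed. The leading clonotype had 126 UMIs in the tdLN of the same mice and 3 in their spleen, and the latter pair had 8 and 6 UMIs in that tdLN.

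In IL-10-Fc, the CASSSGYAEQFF joint led with 476 UMIs (0.366%), at least 214-fold higher than in BF10, where it had 0. Joint 1 of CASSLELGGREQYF (468 UMIs), the Trbv26 joint (453), the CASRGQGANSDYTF joint (399) and the germline joint of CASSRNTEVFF (384) followed. Of these 5, only the last was listed in BF10, as were 4.01% of all TRBC clonotypes of IL-10-Fc. The Trbv26 joint was listed in the IL-10-Fc tumor alone among the 12 libraries, and the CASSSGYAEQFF and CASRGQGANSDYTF joints had 21 and 17 UMIs in the tdLN of the same mice.

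Most expanded clonotypes of either tumor were also listed in the tdLN of the same mice. Of the 23 in the TRBC of IL-10-Fc, 20 were in its own tdLN, 9 in its own spleen, 5 in the BF10 tumor, 3 in the tdLN of BF10 and 0 in the spleen of BF10. At the amino acid level 12 of the 23 clonotypes had a loop found in the BF10 tumor. The 23 encode 20 distinct loops, and joints 1, 2, 3 and 5 of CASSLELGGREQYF, a single shared loop, are all among the 12. Counted as distinct loops, 23.6% of all TRBC loops of IL-10-Fc and 40.9% of those with at least 50 UMIs were in the BF10 tumor. The count of 12 is therefore not in the same unit as these shares. The 3 of BF10 were all in its own tdLN, and 1 of them was in the IL-10-Fc tumor. Of all TRBC clonotypes, 4.01% of IL-10-Fc's and 2.43% of BF10's were in the other tumor. The share of all clonotypes listed in tdLNs and spleens was not computed, and abundance was not matched. The counts above are therefore not shown to be particular to expanded clonotypes. These counts rest on libraries of unlike read depth, since the tdLN of BF10 had 8.26% of TRBC UMIs with at least 7 reads and that of IL-10-Fc 35.3%, and the part of depth was not tested.

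In the α chain, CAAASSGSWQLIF on Trav7d-2 with Traj22 led IL-10-Fc with 1971 UMIs (1.99%, 1.91% to 2.08%), 138-fold above its 17 UMIs in BF10 (86.0 to 237). It was followed by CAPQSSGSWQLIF with 403 UMIs, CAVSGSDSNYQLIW with 268, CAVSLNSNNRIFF with 204 and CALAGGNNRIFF with 195, each with 0 UMIs in BF10. The leading TRAC clonotypes of BF10 were smaller. They were 2 listings of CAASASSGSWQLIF (174 and 147 UMIs), which had 120 and 176 UMIs in IL-10-Fc, then the Trav5d-4 joint (123), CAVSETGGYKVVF on Trav1 with Traj12 (104) and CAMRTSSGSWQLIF on Trav16n with Traj22 (104), the latter pair with 0 in IL-10-Fc. Of all TRAC clonotypes, 12.2% of IL-10-Fc's and 8.47% of BF10's were listed in the other tumor. By nucleotide CDR3 alone these shares were 23.2% and 16.3%. The values of 0 hold for clonotypes as listed, and 1 joint can stand under several V listings.

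Shared loops could also differ widely in abundance. A Trbv3 with Trbj1-3 loop of 15 residues had 43 UMIs in BF10 and 1 in IL-10-Fc, a ratio of 32.0 (5.44 to 1291). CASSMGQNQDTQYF had 76 UMIs in BF10 and 2 in IL-10-Fc, a ratio of 28.2 (7.55 to 237), and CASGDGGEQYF had 55 and 2. In the other direction, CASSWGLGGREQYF had 1 and 293 UMIs, 394-fold lower in BF10 (70.2 to 15626), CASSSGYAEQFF had 2 and 484, and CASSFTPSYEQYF had 1 and 177. Among TRAC loops, 1 of 15 residues with Trav14-2/Trav14n-2 and Traj42 had 92 UMIs in BF10 and 1 in IL-10-Fc, a ratio of 77.3 (13.5 to 3085), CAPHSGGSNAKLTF had 68 and 2, and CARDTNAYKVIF had 22 and 1. Toward IL-10-Fc, a Trav9n-3 with Traj4 loop of 15 residues had 1 and 103 UMIs, 123-fold lower in BF10 (21.5 to 4890), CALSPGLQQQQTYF had 1 and 95, and a Trav6d-6 with Traj56 loop of 15 residues had 1 and 68. The wide intervals come from the 1 or 2 UMIs on the lower side.

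**Figure D5:**
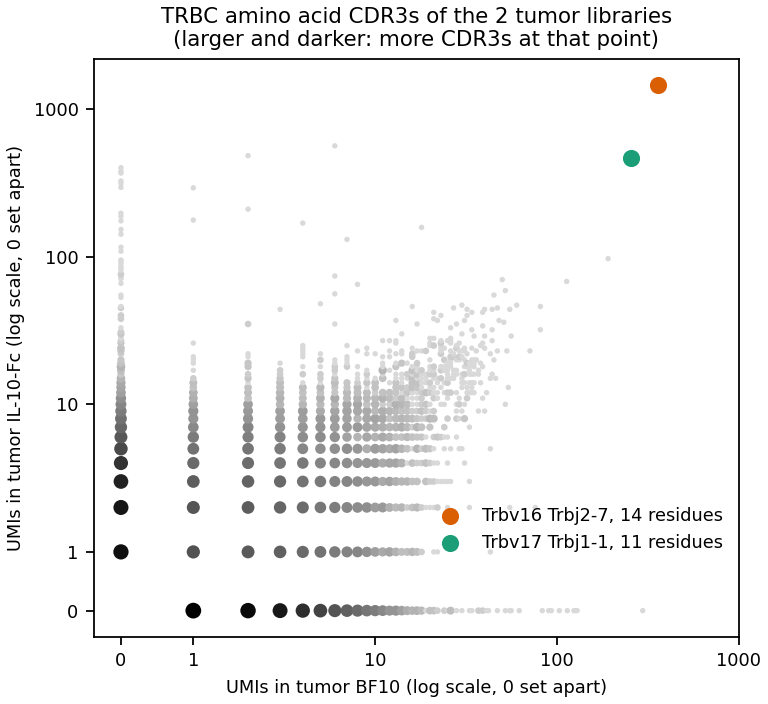
UMIs of each TRBC amino acid CDR3 in the BF10 tumor library (horizontal) and the IL-10-Fc tumor library (vertical), on log axes with 0 set apart, where larger and darker points hold more CDR3s. Most loops lie along the 0 lines (59881 private to BF10 and 34473 to IL-10-Fc), and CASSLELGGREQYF (Trbv16 with Trbj2-7, 358 and 1447 UMIs) and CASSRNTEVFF (Trbv17 with Trbj1-1, 254 and 466) lie farthest out among the 10663 shared.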

How the data were processed

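CD8+ T cell RNA of tumors, spleens and tdLNs was made into QIAseq UMI libraries and read on a NextSeq 550 by the authors, who grouped reads and assigned V, J and CDR3 in QIAGEN's portal; its version and germline set are not given in the sources used here, and the labels name mm10. The deposited values used are counts: UMIs with at least 3 reads for each clonotype and chain, without normalization. Shares were taken per chain. Genes were compared at 0.1% or more of the UMIs of both libraries together, and a ratio past 1.5-fold was called. Values at equal depth are expected values without drawing. Germline bases came from GRCm38 with GENCODE M21. The steps were tested on simulated data. Named were the 5 leading clonotypes and 5 leading shared loops of each chain, the 3 widest ratios in each direction, and the genes past 1.5-fold or most used. Leading shared loops were ranked by the smaller of their UMI shares in both tumors. The members and lists were chosen with earlier results of these data known, and the loops nearly absent from spleens, the V and J pairs and the genes at the ends of a range after values were seen. Alternatives were 7 reads, 2 UMIs, clonotypes counted once, merging of CDR3s 1 base apart, a V region as listed, other definitions of sharing and other thresholds. Python 3.11.15, numpy 2.4.6, scipy 1.17.1, pandas 2.3.3 and matplotlib 3.10.9 were used. A further sequence was left out of the text.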

Additional observations from a re-analysis of the deposited data

Results flagged for a closer look

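Trbv29 was flagged because its ratio differed in direction between tissues, by a rule that set a minimum usage and fold. The ratio of its TRBC share for BF10 to that for IL-10-Fc was 1.099 in tumors (14.5% and 13.2%) and 0.661 in spleens (9.39% and 14.2%). The spleen of BF10 stood apart, since Trbv29 took 13.2% in the spleen of control IgG and 13.3% in that of anti-CSF1R. Less used genes also reversed, with tumor and spleen ratios of 0.824 and 1.32 for Trbv26 and 0.852 and 1.29 for Trbv2. Each treatment had 1 library in each tissue, and these differences were not tested.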

How the results depend on the processing

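Of 154 values under alternatives, over 31 results, 78 moved by less than their counting interval (or 1.5 times, for counts) and 76 moved. The values that moved are given by result, beside the value in the report, and the cause was not tested unless the alternative itself gives it. Without a filter on low usage 8 Trbv entries (3 genes and 5 that join several genes) passed 1.5-fold against 0, with V regions as listed 6 Trav entries against 0, and with each clonotype counted once, or at 2-fold, 0 Traj genes against 1. The Trbv distance of 3.50 points was 1.87 with each clonotype counted once, 2.40 without expanded clonotypes and 4.07 with clonotypes of at least 2 UMIs. That of Trbj (2.13) was 1.12 and 1.08 under the first 2 of these, that of Trav (3.70) was 1.71, 1.69 and 4.53 and with V regions as listed 5.84, and that of Traj (4.25) was 1.84, 2.70 and 4.85. The 12 pairs of Trbv and Trbj became 1, 5 and 22, alternatives chosen after seeing the data. The Trbj1 cluster ratio of 1.02 was 1.03 with each clonotype counted once. The TRBC length difference of 0.00306 residues was 0.0203 with each clonotype counted once, 0.0408 over unique loops and -0.00940 with clonotypes of at least 2 UMIs, and that of TRAC (0.0187) was 0.0324 over unique loops.

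Shared TRBC loops (10663) numbered 6653 with UMIs of at least 7 reads, 5342 with clonotypes of at least 2 UMIs, 6646 with V and J required, and 3074 by nucleotides. Their UMI share under these 4 settings was 25.2%, 23.7%, 12.3% and 4.802% for BF10 (28.4%) and 29.0%, 28.5%, 17.4% and 7.95% for IL-10-Fc (35.8%), which was also 34.7% without expanded clonotypes and 33.8% at equal UMI totals. Shared TRAC loops (9905) numbered 6287 and 5867 under the first 2 settings. Their UMI share was 49.7%, 51.1%, 24.6% and 30.2% for BF10 (54.9%) and 53.3%, 54.4%, 31.0% and 37.0% for IL-10-Fc (61.2%), and for the latter 60.7% without expanded clonotypes and 60.01% at equal UMI totals.

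The 10 leading sequences, taken as amino acid loops in place of clonotypes, held 1.032% of TRBC for BF10 and 3.88% for IL-10-Fc, and 2.08% and 4.66% of TRAC. With CDR3s that are 1 base apart merged (1185 clonotypes), they held 1.198% and 4.02% of TRAC, and with UMIs of at least 7 reads 3.67% of TRAC for IL-10-Fc. With 0.05% in place of 0.1%, expanded clonotypes numbered 10 in BF10 and 37 in IL-10-Fc for TRBC, with 0.890% and 6.08% of UMIs, and 15 and 41 for TRAC, with 1.18% and 6.15%. As amino acid loops, expanded sequences held 0.628% and 5.41% of TRBC, and for TRAC they numbered 15 and 31, with 2.62% and 7.25%. After merging, expanded TRAC clonotypes of BF10 numbered 5, with 0.733% of UMIs against 4.797% for IL-10-Fc, and those of TRBC in IL-10-Fc held 5.24%, or 4.95% with UMIs of at least 7 reads. In each of these settings the expanded share of a chain was lower in BF10 than in IL-10-Fc. No paired analysis was possible because each treatment had 1 library. That number, and not read depth alone, limits the precision.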

Other observations

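The γδ chains, a small part of both tumor libraries, were also read. Trgv2 took 47.4% of TRGC UMIs for BF10 (557 UMIs) and 67.9% for IL-10-Fc (776 UMIs). Several other γ chain entries took a larger share for BF10, with ratios of 2.04 for Trgv3, 1.75 for Trgv1, 1.73 for the joint entry of both and 3.70 for that of Trgv2 and Trgv3, and those of Trgv4, Trgv6 and Trgv7 had intervals that held 1. Trgv5, known from γδ T cells that live in the epidermis, took 11.2% (132 UMIs) and 5.34% (61 UMIs), a ratio of 2.11 (1.54 to 2.90), beside 11.1% in the control IgG tumor and 27.3% in that of anti-CSF1R. In spleens it took 0.254% for BF10 and 0.678% for IL-10-Fc. Other δ genes differed in both directions, with ratios of 1.54 for Trdv13-4-dv7, 5.90 for Trdv16d-dv11 (20 and 2 UMIs) and 0.573 for Trdv15d-2-dv6d-2. Trdv4, a δ gene of the same cells, took 8.11% of TRDC UMIs for BF10 (120 UMIs) and 5.50% for IL-10-Fc (48 UMIs), a ratio of 1.476 (1.048 to 2.108). It is not particular to these cells, since in the tdLNs of BF10 and IL-10-Fc it took 42.3% and 34.9%, where Trgv5 took 2.10% and 1.34% of TRGC UMIs. It took 51.0% in the control IgG tumor and 83.0% in that of anti-CSF1R, and 3.76% and 0.33% in the spleens of BF10 and IL-10-Fc.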
